A study of Mus musculus with 85 samples.

Results

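Pericytes sorted from the brains of E14.5 mouse embryos were compared between neural knockouts (nKO) of Kansl2 and of Kansl3, the genes of 2 subunits of the NSL complex. The comparison holds 7 of the 85 samples of the series: the Kansl2 nKO libraries K2_328, K2_330 and K2_338 and the Kansl3 nKO libraries K3_327, K3_333, K3_335 and K3_339. They were chosen by labelled genotype and cell type, with no measured value in the choice. Both knockouts were made with Nestin-Cre, which acts in neural progenitors and their offspring; whether it also acted in the sorted pericytes is not stated in the labels. The labels name no allele and do not give the genotype of the controls beyond Cre control. The 4 Cre control libraries of sorted pericytes (Cre_134, Cre_139, Cre_141 and Cre_142) carry the same driver and are shown as levels, with no part in the tests. For a comparison with another vascular cell type, 3 Kansl2 nKO and 3 Kansl3 nKO libraries of sorted endothelial cells were used. All of these cells were isolated by FACS, and their cDNA was amplified with a SMART-Seq kit for very small amounts of RNA.

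MOF, which Kat8 encodes, adds acetyl groups to histones, and in the NSL complex it works with partner subunits that include KANSL2 and KANSL3. Pericytes are the mural cells of capillaries. They share a basement membrane with the endothelium, are recruited by endothelial PDGF-B through PDGFRB, and in the embryonic brain lie close to the processes of radial glia, the neural progenitors.

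The Kansl2 libraries held 2357456 to 3605002 reads and the Kansl3 libraries 3211286 to 5852542. Genes of the mitochondrial genome took 5.05 to 7.84% of reads in Kansl2 and 3.77 to 7.26% in Kansl3 libraries, with K3_333 the lowest. Xist was above Ddx3y, a Y-linked gene, in 2 of 3 Kansl2 and 2 of 4 Kansl3 libraries, so both groups hold both sexes. Among the Cre controls it was so in Cre_141 alone. The numbers in the sample names interleave between the knockouts and are lower in the Cre controls. The labels name 2 sequencers without saying which library ran on which. Nothing beyond the sample names says that libraries come from separate embryos; if they do not, the p-values measure only the spread between these samples.

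The pericyte label was checked against 20 markers, all of which were detected well enough to be tested. Together they took 1.32 to 1.41% of reads in Kansl2, 1.065 to 1.555% in Kansl3 and 1.29 to 1.65% in Cre libraries. Endothelial markers took 0.03695 to 0.0489% of reads in Kansl2 and 0.0301 to 0.0401% in Kansl3 libraries, and microglia and macrophage markers 0.00688 to 0.00946% and 0.00593 to 0.0112%. Trem2, a microglial receptor, and S100a8, Mpo, Ngp and Camp, genes of neutrophils, had no read in any of the 7 libraries.

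Kansl3 stood at 252, 322 and 286 normalized counts in Kansl2 nKO and at 167, 257, 141.4 and 196.5 in Kansl3 nKO pericytes, and the groups overlapped (0.62 ± 0.26, adjusted p = 0.138). Kansl2 stood at 140.5 ± 14.1 (SD, n = 3) in Kansl2 nKO and at 182 ± 50.3 (SD, n = 4) in Kansl3 nKO pericytes, and overlapped too (-0.34 ± 0.28, adjusted p = 0.471). Kat8 differed by -0.27 ± 0.57, adjusted p = 0.799. Values are normalized counts per library, in the order of the libraries above. A difference is the log2 of Kansl2 nKO minus Kansl3 nKO on the scale log2(normalized count + 1), given ± SE, and the adjusted p is that of limma with Benjamini-Hochberg adjustment over all genes tested. Since the labels do not say whether the deletion occurred in pericytes, these levels do not check the genotype. None of 9 NSL complex genes passed by limma (1 had an unadjusted p under 0.05), and none of 3 genes of the MSL complex, another assembly built on MOF, did (2 had); edgeR and DESeq2 called 0 of either.

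Of 14313 genes tested, 1452 passed at an adjusted p under 0.05 (10.1%): 639 were higher in Kansl2 nKO (4.46%) and 813 were lower (5.68%). These shares are the background for the counts of gene lists below, which were not tested as sets. The median difference over all genes tested was -0.05, and the median size among genes that passed was 1.31. The 3 Kansl2 and 4 Kansl3 libraries did not overlap in 3625 of all genes tested (25.3%), and in 1420 of the 1452. The mean of the Cre controls lay between the means of the knockouts for 1330 of the 1452 (91.6%), above both for 67 and below both for 55. The 1452 were selected for a wide gap between the knockouts, which favours a control mean inside that gap. The share over all genes tested was not computed, so the 91.6% says little about the controls. Predicted genes (names such as Gm or Rik) made up 2221 of the genes tested, of which 182 were higher and 53 lower. The number that passed was 660 without K2_330, 680 without K2_338, 883 without K3_327, 914 without K2_328 and 918 without K3_339. The balance of directions moved as well: 463 of the 660 were lower without K2_330, 463 of the 680 without K2_338 and 614 of the 914 without K2_328. The calls shared with the full comparison kept their direction. On the values as the authors scaled them, in separate tables, 488 genes were higher and 1432 lower.

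**Figure D1:**
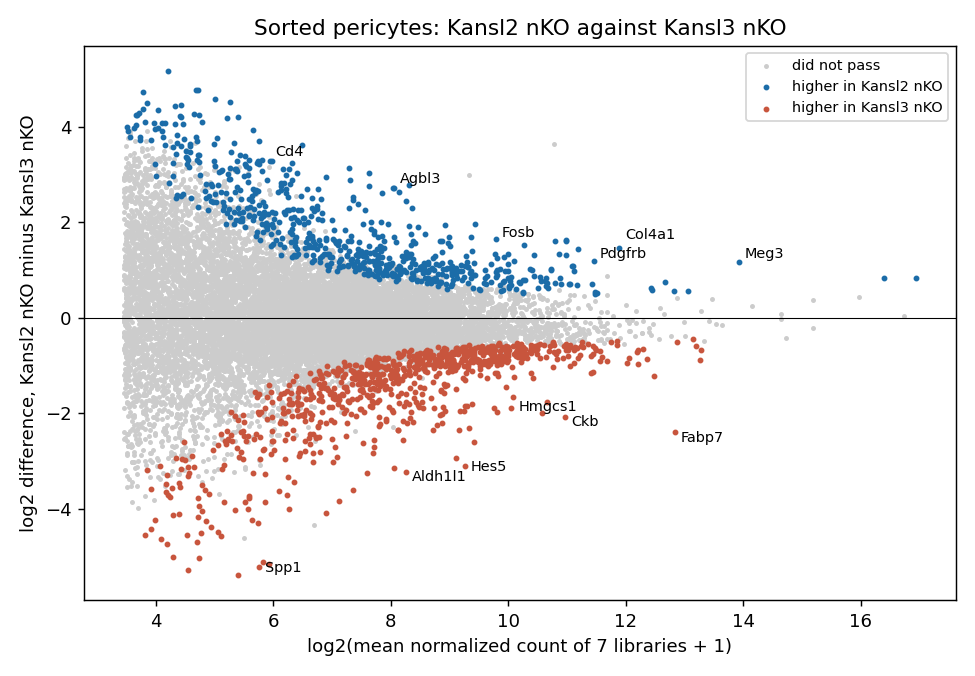
Log2 difference between Kansl2 nKO and Kansl3 nKO pericytes (vertical axis) against the log2 of the mean normalized count of the 7 libraries plus 1 (horizontal axis); each point is a gene. Coloured genes passed, 639 higher in Kansl2 and 813 higher in Kansl3, with Hes5, Fabp7 and Aldh1l1 far below 0 and Pdgfrb, Col4a1, Fosb and Meg3 above it.

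Surface and receptor markers of pericytes were higher in Kansl2 nKO. Pdgfrb, the receptor for PDGF-B, stood at 4569, 4219 and 3662 in Kansl2 and at 1525, 2142, 1907 and 1703 in Kansl3 libraries. The groups did not overlap (1.195 ± 0.15, adjusted p = 0.000591), and the Cre controls, at 2966 to 3654, lay between them. Cspg4, the proteoglycan NG2, stood at 2424, 1904 and 1988 against 691, 951, 885 and 867 (1.31 ± 0.16, adjusted p = 0.000537). Mcam, the adhesion molecule CD146, stood at 3626, 2605 and 3033 against 1022, 1346, 1191 and 1388 (1.32 ± 0.16, adjusted p = 0.000524). Neither of these overlapped between the knockouts. Ebf1, a transcription factor of mural cells, stood at 2921, 2889 and 3497 against 1341, 1609, 1631 and 1675 (0.99 ± 0.14, adjusted p = 0.00148). These 4 genes passed with any single library left out.

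Of the 20 pericyte markers 9 were higher in Kansl2 and none was lower, with a median difference of 0.66. Notch3, a receptor through which mural cells mature (1.285 ± 0.23), the intermediate filament gene Des (1.29 ± 0.32), the channel subunit gene Abcc9 (0.71 ± 0.18) and the transcription factor genes Tbx18 (0.97 ± 0.26) and Foxc1 (1.06 ± 0.30) were the other 5. The markers did not move as a block. Rgs5, the most abundant of those described here and a regulator of G-protein signalling, stood at 22280, 22970 and 22220 against 25010, 35810, 31420 and 30010, and did not pass (-0.43 ± 0.13, adjusted p = 0.0559). Vtn (-0.27 ± 0.15), Kcnj8 (0.04 ± 0.15) and Ndufa4l2 (0.08 ± 0.185) did not pass either. The number higher was 5 without K2_330 or K3_327 and 6 without K2_328 or K2_338. Without K3_327 1 marker was lower, and on the values as deposited 6 were higher and 1 lower. By DESeq2, with scaling over the 7 libraries alone, with quality weights or with all pericyte groups in the fit 1 was lower too. In sorted bulk samples fewer cells of a type and less RNA per cell cannot be told apart.

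None of 15 smooth muscle and contractile genes passed by limma, where 6 had an unadjusted p under 0.05, and edgeR called 0 and DESeq2 1. Vcl, which links actin to adhesion sites, came closest (0.72 ± 0.22, adjusted p = 0.0521). Myh11, the smooth muscle myosin, stood at 49.4, 30.65 and 44.2 against 0, 15.7, 19.7 and 4.49; its groups were apart but its difference did not pass (2.66 ± 1.01, adjusted p = 0.105). Leaving out K3_335 gave 2 genes of this list that were higher and leaving out K3_333 gave 1.

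Basement membrane genes were higher in Kansl2 nKO. Col4a1 and Col4a2 adjoin each other (chr8:11198423-11312889 and chr8:11312805-11449287, mm10), and their products wind together into the type IV collagen of the vascular basement membrane. Col4a1 stood at 7092, 5268 and 5402 in Kansl2 and at 1741, 2502, 2068 and 2341 in Kansl3 libraries (1.45 ± 0.16, adjusted p = 0.000324). Col4a2 stood at 3926, 3326 and 3635 against 959, 1765, 1352 and 1352 (1.45 ± 0.18, adjusted p = 0.000591). For both, every Kansl2 library lay above every control and every control above every Kansl3 library. Hspg2, the proteoglycan perlecan, stood at 373, 403 and 316 against 114.5, 124, 116.8 and 90.95 (1.70 ± 0.25, adjusted p = 0.0015). Agrn, the proteoglycan agrin, stood at 3061, 3139 and 3039 against 1478, 1937, 1095 and 1462 (1.07 ± 0.17, adjusted p = 0.00283). These 4 passed with any library left out.

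Of 32 matrix and basement membrane genes 10 were higher in Kansl2 and 1 was lower, with a median of 0.46. The laminin chain genes Lamb1 (1.09 ± 0.18), Lama4 (0.78 ± 0.19) and Lamc1 (0.89 ± 0.24), the linker genes Nid1 (0.70 ± 0.19) and Nid2 (1.30 ± 0.36), and Fn1, fibronectin (1.02 ± 0.21), were the other 6. The one that was lower was Tnc, tenascin C, at 170.2, 147 and 299 against 1069, 884, 229.9 and 554 (-1.59 ± 0.43, adjusted p = 0.032). Its groups overlapped, since K3_335 lay below K2_338, and no gene of the list was lower without K2_328, K2_330, K3_327, K3_333 or K3_339. The abundant matrix genes Sparc (-0.11 ± 0.12) and Bgn (0.01 ± 0.17) did not pass. The number higher was 5 without K2_338 and 6 without K2_328, K2_330, K3_327 or K3_339, and the values as deposited gave 8 higher and 4 lower.

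Fibrillar collagen genes, listed among the markers of fibroblasts and meningeal cells, were higher in Kansl2 as well. The markers of that list took 0.08815 to 0.0993% of reads in Kansl2, 0.0383 to 0.0561% in Kansl3 and 0.0576 to 0.108% in Cre libraries. Of 11 tested 3 passed, all of them higher and all fibrillar collagen chains, and 3 of the 11 differences were below 0. Col1a2 stood at 962, 995 and 1133 against 367, 442, 349.1 and 399.7 (1.40 ± 0.17, adjusted p = 0.000524), and Col3a1 at 1551, 1534 and 1535 against 477.5, 908, 552 and 578 (1.33 ± 0.20, adjusted p = 0.00201). Col1a1 differed by 1.60 ± 0.34, adjusted p = 0.0111, and 0.0663 without K2_330. The defining fibroblast markers Dcn (-1.73 ± 0.69), Lum (-0.64 ± 0.46) and Pdgfra (0.73 ± 1.32) did not pass. Without K2_330, 2 markers of the list were higher and 1 was lower. The part of such cells in the matrix differences was not tested.

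Of 16 matrix proteases and inhibitors 3 were higher in Kansl2 and none was lower. Higher genes made up 4.46% of all genes tested. The median of the list was -0.09, with 10 of the 16 differences below 0. Adamts1, a secreted protease that cleaves proteoglycans, stood at 1035, 802 and 876.5 against 369, 618.5, 406 and 366.1 (1.07 ± 0.21, adjusted p = 0.00858). Adamts9, of the same family, stood at 141.3, 133 and 127 against 37.85, 34.6, 63.9 and 37.05 (1.65 ± 0.38, adjusted p = 0.0178), with an adjusted p of up to 0.0683 without K2_330. The groups did not overlap in either gene. The count was 2 without K2_328, K2_330 or K2_338. Timp3 (-0.11 ± 0.18) and Mmp14 (-0.07 ± 0.19) did not pass.

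Genes through which pericytes and endothelium signal to each other went both ways: of 33 tested 5 were higher in Kansl2 and 3 were lower. The shares over all genes tested were 4.46% higher and 5.68% lower. Among receptors, Ednrb, the endothelin B receptor, stood at 146, 68.7 and 136.5 in Kansl2 and at 896, 945, 241 and 516.5 in Kansl3 libraries (-2.35 ± 0.42, adjusted p = 0.00503). The lowest Kansl3 library, K3_335, still lay above every Kansl2 library. Notch1 stood at 1360, 1166 and 1203 against 701, 944.5, 666.3 and 667 (0.75 ± 0.17, adjusted p = 0.0169), with 1097 to 1445 in controls and an adjusted p of up to 0.0563 without K2_328. Nrp1, a co-receptor for VEGF (0.75 ± 0.17), and Eng, a co-receptor for TGF-beta (0.90 ± 0.26), were higher in Kansl2 as well.

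Among ligands, Tgfb1 stood at 196, 166 and 127 against 45.6, 50.3, 61.5 and 32.6 (1.77 ± 0.37, adjusted p = 0.0107), with an adjusted p of 0.0501 without K2_330. Jag1, a Notch ligand, was higher too (0.85 ± 0.20). Cxcl12, a chemokine, stood at 32.35, 95.1 and 68.9 against 165, 196.6, 246 and 159 and was lower (-1.64 ± 0.38, adjusted p = 0.0168). Its controls lay among the Kansl2 values, at 39.1 to 56.2, except Cre_134, at 211 among the Kansl3 values. Id3, a target of BMP signals, was lower (-0.55 ± 0.14, adjusted p = 0.0263). The number higher was 1 without K2_338 and 2 without K2_328 or K2_330, and the number lower was 2 without K2_330, K2_338 or K3_339. Ednra (-0.49 ± 0.18), Angpt1 (0.23 ± 0.47) and Vegfa (-0.21 ± 0.39) did not pass.

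Of 22 immediate early and stress-induced genes, which cells switch on within minutes of a stimulus, 8 were higher in Kansl2 and none was lower (median 0.55). Fosb (chr7:19302696-19310118), a subunit of the AP-1 transcription factor, stood at 3330, 3060 and 2241 in Kansl2 and at 819, 956, 1009 and 969 in Kansl3 libraries (1.60 ± 0.17, adjusted p = 0.000234). The controls, at 1062 to 1584, lay between the groups and nearer to Kansl3. Klf4, a zinc-finger factor, stood at 1481, 1396 and 1130 against 353, 537, 649 and 609 (1.34 ± 0.21, adjusted p = 0.00256), with controls at 727 to 883. Nr4a1, a nuclear receptor, stood at 2176, 2420 and 2436 against 868, 1658, 1144 and 1114 (1.01 ± 0.19, adjusted p = 0.00686). Fos, at 9490, 11080 and 10510 against 7267, 11020, 10780 and 9007, overlapped (0.14 ± 0.15, adjusted p = 0.588), so the AP-1 genes did not move together.

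Klf2 (1.32 ± 0.29), Egr1 (0.62 ± 0.15) and Klf6 (0.73 ± 0.19) were higher as well. So were the heat shock genes Hspa1a (1.63 ± 0.21, adjusted p = 0.000592) and Hspa1b (1.76 ± 0.27, adjusted p = 0.0021), near-identical copies between which reads can be split. Hspa1a stood at 2887, 4127 and 2884 in Kansl2, 758, 1211, 965 and 1383 in Kansl3 and 2025 to 5143 in Cre libraries, so the Kansl3 libraries were the ones apart from the controls. The list took 1.19 to 1.43% of reads in Kansl2, 0.698 to 1.14% in Kansl3 and 0.933 to 1.23% in Cre libraries. These genes also respond to tissue dissociation; the labels do not give the time from dissection to lysis, and its part was not tested.

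Imprinted noncoding RNAs were higher in Kansl2 nKO. Meg3 (chr12:109540996-109571729), a long noncoding RNA expressed from the maternal copy of the Dlk1-Dio3 domain, stood at 19640, 25900 and 22770 in Kansl2 and at 9303, 10690, 9387 and 11380 in Kansl3 libraries. The controls lay between, at 11740 to 13790 (1.16 ± 0.13, adjusted p = 0.000385). Rian and Mirg, maternal noncoding RNAs of the same domain, stood at 3061, 3511 and 3186 against 899.7, 1422, 841 and 1196 (1.61 ± 0.18, adjusted p = 0.000358) and at 899, 724 and 599.5 against 152, 293, 229 and 318 (1.61 ± 0.26, adjusted p = 0.00282). All 3 were apart between the knockouts. Dlk1, the paternally expressed protein gene of the domain, stood at 1221, 1352 and 1120 against 1042, 1469, 1238 and 964.5 and did not pass (0.08 ± 0.17, adjusted p = 0.808).

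In all, 5 of 15 imprinted genes were higher in Kansl2 and 2 were lower. Igf2r, a receptor that clears IGF2, was higher (0.96 ± 0.17, adjusted p = 0.00558), as was Igf2 itself, at 9301, 8468 and 7669 against 5708, 5075, 5393 and 4107 (0.75 ± 0.14, adjusted p = 0.00667). The controls were above both knockouts for Igf2, at 10320 to 12830. Mest (-0.59 ± 0.13) and Ndn (-1.60 ± 0.39) were lower. The number higher was 5 or 6 with any library left out, and the number lower was 0 without K2_338 and 1 without K2_330 or K3_333.

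**Figure D2:**
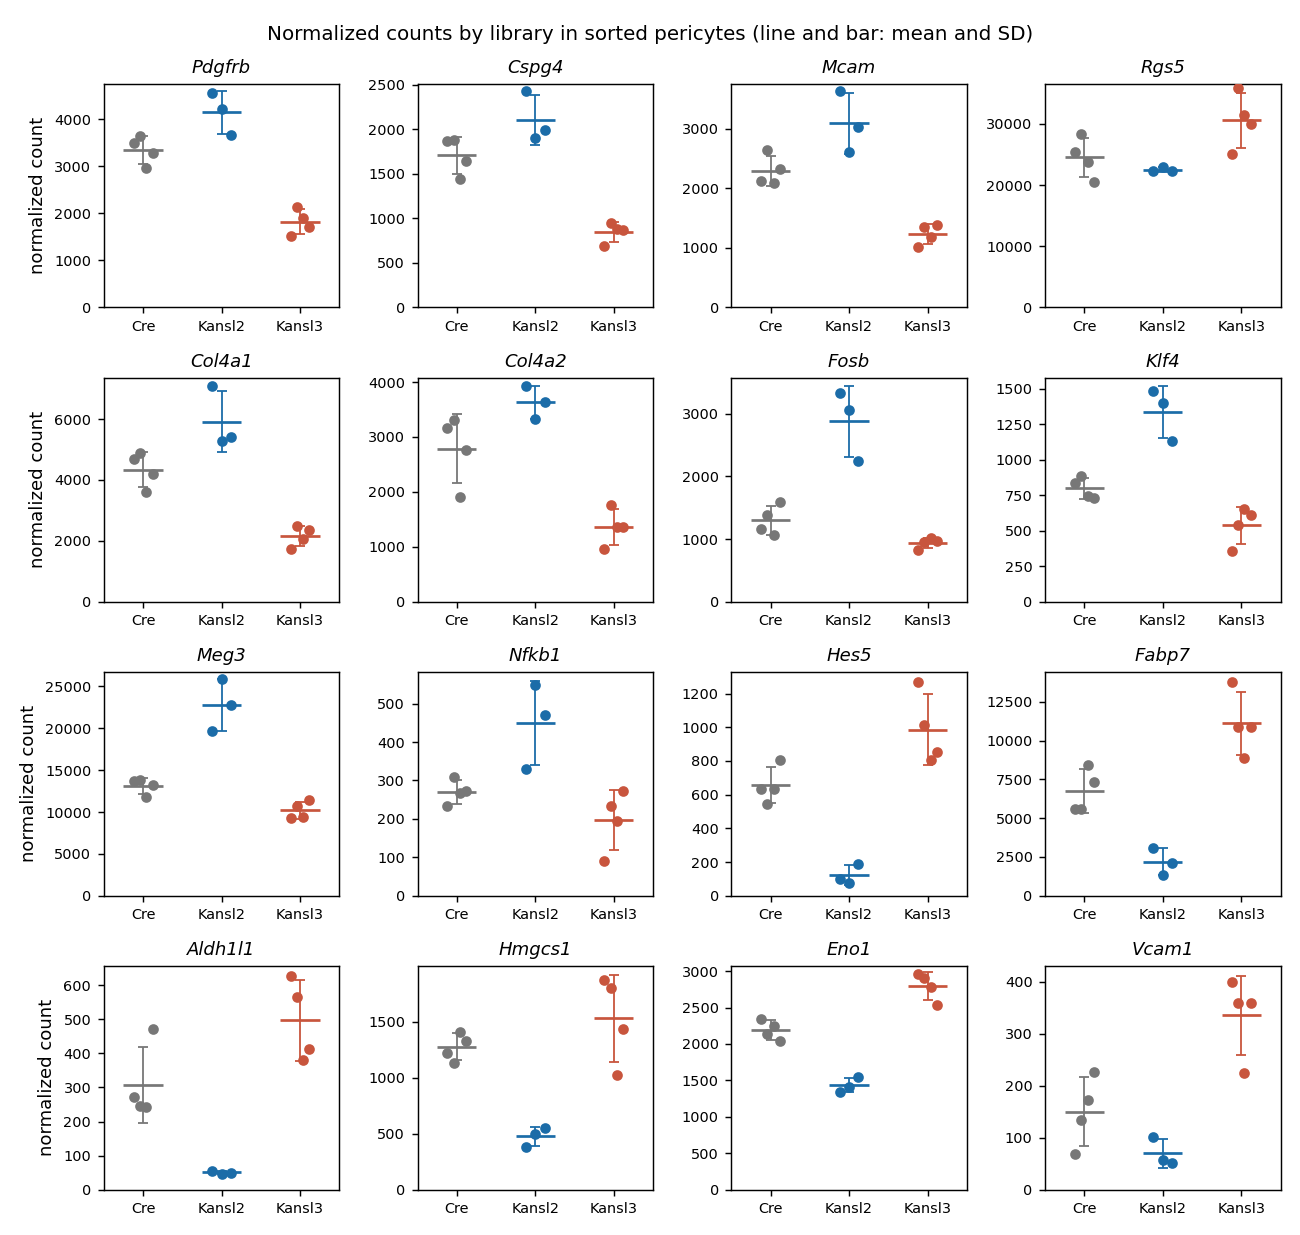
Normalized count (vertical axes, from 0) of 16 genes in each pericyte library, by group; points are libraries, the line is the mean and the bar the SD. Pdgfrb, Cspg4, Mcam, Col4a1, Col4a2, Fosb, Klf4, Meg3 and Nfkb1 are higher in every Kansl2 than in every Kansl3 library, and Rgs5, Hes5, Fabp7, Aldh1l1, Hmgcs1, Eno1 and Vcam1 are lower, Rgs5 without passing the test.

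Genes of neural progenitors were lower in Kansl2 nKO. Hes5 (chr4:154960626-154962372), the Notch target of radial glia, stood at 97.0, 76.1 and 189 in Kansl2 and at 1268, 1016, 808 and 853 in Kansl3 libraries (-3.11 ± 0.29, adjusted p = 0.000145). Fabp7 (chr10:57784923-57788450), the brain lipid-binding protein of radial glia, stood at 3095, 1359 and 2133 against 13810, 10880, 8910 and 10860 (-2.40 ± 0.23, adjusted p = 0.000146). The controls lay between, at 547 to 803 for Hes5 and 5579 to 8459 for Fabp7. Sox2, a transcription factor of neural stem cells, stood at 39.2, 107 and 81.9 against 464, 257, 288 and 346 (-2.22 ± 0.35, adjusted p = 0.00222). Slc1a3, a glutamate transporter of radial glia, stood at 308, 267 and 330.3 against 1808, 1877, 525 and 1146 (-1.99 ± 0.34, adjusted p = 0.00431). None of the 4 overlapped between the knockouts, and all 4 passed with any library left out.

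All 13 progenitor markers had a negative difference and 7 passed, with a median of -1.80; Neurog2 (-1.80 ± 0.46) and Emx2 (-1.415 ± 0.41) were among them. Between 5 and 7 passed with single libraries left out. The markers did not shift equally: Nes (-0.44 ± 0.17), which vascular cells also express, and Pax6 (-0.05 ± 0.35) did not pass. The list took 0.0725 to 0.1145% of reads in Kansl2, 0.3005 to 0.487% in Kansl3 and 0.2115 to 0.301% in Cre libraries. Every Kansl2 library was below every other, and the lowest Kansl3 library, K3_335, lay within the range of the controls. None of these markers was at 0 in all 7 libraries. The labels give no sort gates, and whether this RNA came from pericytes or from neural cells in the sort was not tested.

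Neuron markers went the same way: of 13 tested 3 were lower in Kansl2 and none was higher. Lower genes made up 5.68% of all genes tested, and 12 of these 13 differences were below 0. Gap43, a growth cone protein, stood at 119.2, 49.7 and 28.6 against 243, 195, 219 and 264 (-2.02 ± 0.41, adjusted p = 0.00903). Map2, a microtubule protein, differed by -1.497 ± 0.34, adjusted p = 0.0156, and 0.0537 without K2_328. Stmn3, of the stathmin family, differed by -2.54 ± 0.62, adjusted p = 0.0215, and 0.0723 without K2_330. The list took 0.0210 to 0.0301% of reads in Kansl2, 0.0371 to 0.0757% in Kansl3 and 0.0359 to 0.0567% in Cre libraries. Outside the lists, Aldh1l1, a folate enzyme of the glial lineage chosen after its values were seen, stood at 56.2, 46.5 and 50.7 against 627, 565, 381 and 413 (-3.23 ± 0.27, adjusted p = 6.62e-05).

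Of 9 endothelial markers tested, the VEGF receptor gene Flt1 (1.27 ± 0.31, adjusted p = 0.0222) and Pecam1 (1.5 ± 0.38, adjusted p = 0.0263) were higher in Kansl2, and the lipid transporter gene Mfsd2a was lower (-2.13 ± 0.61, adjusted p = 0.0407). None of the 3 passed without K2_330, and the share that passed over all genes tested was 10.1%. None of 4 microglia and macrophage markers passed by limma (2 had an unadjusted p under 0.05; edgeR called 0 and DESeq2 1 each way). None of 6 erythroid markers passed by limma (2 had an unadjusted p under 0.05; edgeR and DESeq2 each called 1 lower). Of 4 choroid plexus markers Kl was higher, at 46.0, 35.9 and 23.4 against 6.79, 1.31, 0 and 0 (4.08 ± 1.08, adjusted p = 0.0302, and 0.123 without K2_330). The other 3 differences were below 0 and did not pass, and the median of the 4 was -1.53.

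**Figure D3:**
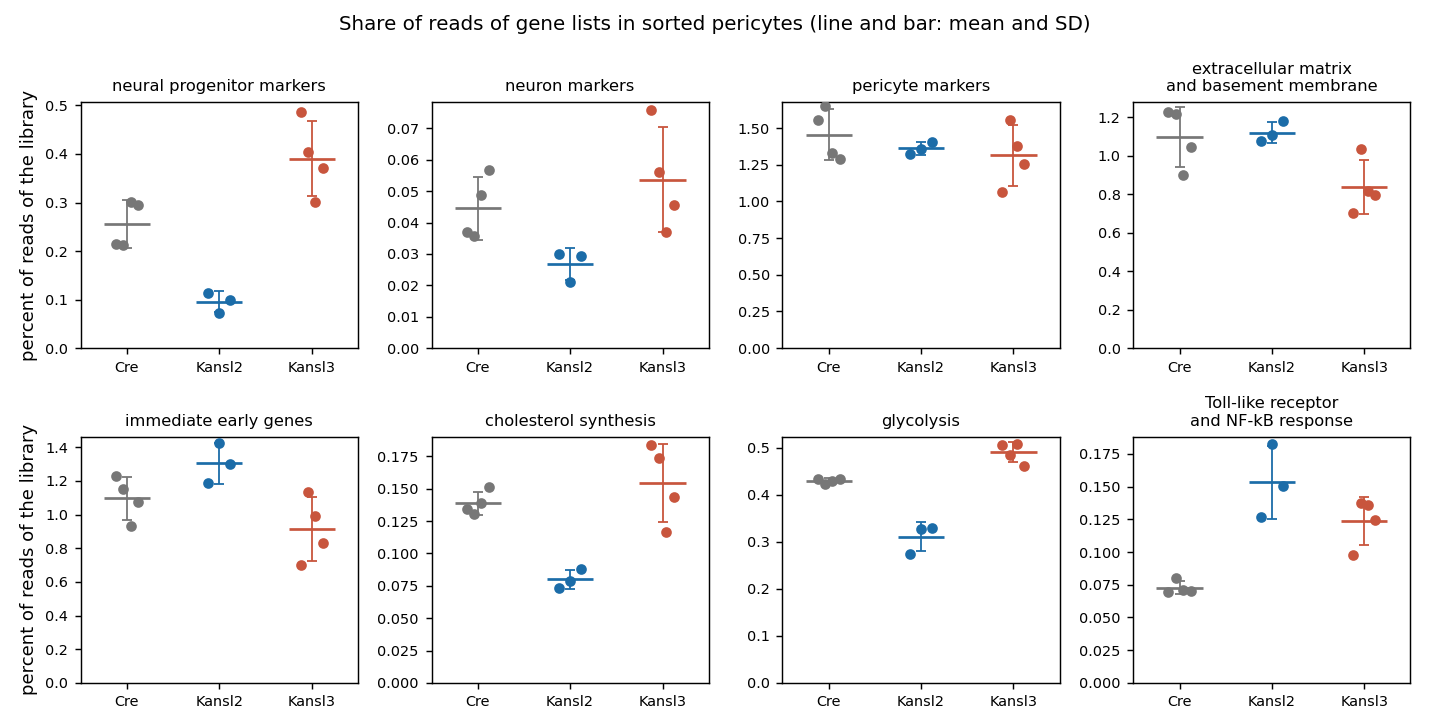
Share of a library's reads (percent, vertical axes, from 0) taken by 8 gene lists in Cre control, Kansl2 nKO and Kansl3 nKO pericytes; points are libraries, the line is the mean and the bar the SD. Neural progenitor markers are at 0.0725 to 0.1145% in Kansl2 and 0.3005 to 0.487% in Kansl3, cholesterol synthesis and glycolysis are lower in every Kansl2 than in every Kansl3 library, and the summed pericyte markers overlap.

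Enzymes of cholesterol synthesis were lower in Kansl2 nKO. Hmgcs1 (chr13:119690351-119708260), the synthase that makes HMG-CoA, stood at 386.5, 498 and 547.5 in Kansl2 and at 1870, 1797, 1022 and 1436 in Kansl3 libraries. The groups did not overlap (-1.66 ± 0.22, adjusted p = 0.000727), and the controls, at 1135 to 1412, lay within the range of Kansl3. The promoter of Hmgcs1 is shown because the sterol-sensing SREBP factors are known to act on this gene and it had the smallest p of its list. The stretch is the 250 bases before the start, chr13:119690101-119690350 on the plus strand (RefSeq, GRCm38.p6), and capitals mark its 1 match to the sterol response element TCACNCCAC, 137 bases before the start.
Hmgcs1: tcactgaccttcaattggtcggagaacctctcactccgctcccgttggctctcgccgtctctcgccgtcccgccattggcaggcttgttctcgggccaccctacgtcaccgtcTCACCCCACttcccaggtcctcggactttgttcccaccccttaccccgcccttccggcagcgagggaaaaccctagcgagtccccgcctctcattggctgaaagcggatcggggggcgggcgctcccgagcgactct
Searched on both strands, the motif occurs in 1.05% of 32851 promoter stretches of this length. Of 17 cholesterol synthesis genes with a listed promoter 1 held it, Hmgcs1. A match is a description of the letters and not a measured site.

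Of 23 cholesterol synthesis genes 7 were lower in Kansl2 and none was higher, with a median of -0.93. Acat2, a thiolase that supplies the pathway, stood at 90.2, 234 and 246 against 646.4, 469.6, 377 and 451 (-1.46 ± 0.33, adjusted p = 0.015). Of enzymes further down, Fdft1 makes squalene (-1.345 ± 0.30, adjusted p = 0.0154, and 0.0662 without K2_338), and Sqle (-1.15 ± 0.30), Cyp51 (-1.20 ± 0.31), Msmo1 (-1.18 ± 0.32) and Sc5d (-2.21 ± 0.61) act after it. The number lower was 3 without K3_327 or K3_339 and 4 without K2_330, K2_338 or K3_333, and 1 gene was higher without K3_333. The list took 0.0736 to 0.0879% of reads in Kansl2, 0.117 to 0.184% in Kansl3 and 0.130 to 0.151% in Cre libraries. Neural progenitor markers moved with it (0.0725 to 0.1145% against 0.3005 to 0.487%), and their part was not tested.

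Fatty acid genes gave fewer calls. Of 21 genes of fatty acid synthesis and elongation 4 were lower in Kansl2 and none was higher. The list took 0.0881 to 0.108% of reads in Kansl2, 0.123 to 0.156% in Kansl3 and 0.120 to 0.147% in Cre libraries. Scd2, a desaturase, stood at 507, 545 and 541 against 916, 1038, 848 and 726.5 (-0.72 ± 0.17, adjusted p = 0.0205), with controls at 938 to 1252. Fads1, another desaturase (-1.19 ± 0.29), Me1, malic enzyme (-3.32 ± 0.80), and Elovl4, an elongase (-3.72 ± 0.93), were the others. Each of these 4 was lost with some library left out, the adjusted p reaching 0.0636 without K2_338 for Scd2, 0.0751 without K2_330 for Fads1, 0.0744 without K3_327 for Me1 and 0.059 without K3_327 for Elovl4. Of 30 genes of fatty acid oxidation the thiolase gene Acaa2 alone passed (-0.90 ± 0.24, adjusted p = 0.0322, and 0.108 without K2_328), and Cpt1a (-0.08 ± 0.32) and Acadm (-0.29 ± 0.26) did not. The share of oxidation genes that passed was below the 10.1% of all genes tested. Even so, 25 of the 30 differences were below 0, with a median of -0.41. The oxidation list took 0.149 to 0.167% of reads in Kansl2, 0.1805 to 0.218% in Kansl3 and 0.174 to 0.186% in Cre libraries.

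Of 18 PPAR targets and lipid uptake genes 2 were lower, a count near the 10.1% of all genes tested that passed. The list took 0.0767 to 0.0969% of reads in Kansl2, 0.107 to 0.126% in Kansl3 and 0.0918 to 0.103% in Cre libraries. Acot1, an acyl-CoA thioesterase, stood at 61.3, 63.4 and 112 against 582, 474, 347 and 429 and did not overlap (-2.555 ± 0.28, adjusted p = 0.000324). The fatty acid transporter gene Slc27a1 differed by -2.635 ± 0.65, adjusted p = 0.0226, and 0.0641 without K3_327. Neural progenitor markers moved with the fatty acid and PPAR lists (0.0725 to 0.1145% of reads against 0.3005 to 0.487%). The part of these markers was not tested. The deposited scaling gave 7 lower genes of synthesis, 6 of oxidation and 5 PPAR targets.

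Of 22 glycolysis genes 10 were lower in Kansl2 and none was higher, with a median of -0.44. Eno1, enolase, stood at 1348, 1415 and 1546 in Kansl2 and at 2962, 2903, 2786 and 2529 in Kansl3 libraries (-0.96 ± 0.13, adjusted p = 0.00112). Pkm, pyruvate kinase, stood at 1982, 2356 and 2148 against 3941, 3668, 3904 and 3736 (-0.82 ± 0.13, adjusted p = 0.00209). The controls lay between the knockouts, at 2036 to 2343 for Eno1 and 2902 to 3293 for Pkm. Tpi1 (-0.99 ± 0.17), Ldhb (-0.92 ± 0.18), Aldoa (-0.61 ± 0.14), Pgk1 (-1.004 ± 0.25), Pgam1 (-1.39 ± 0.35), Pfkl (-0.96 ± 0.25) and Ldha (-0.52 ± 0.15) were lower too. Aldoc, the aldolase of brain, stood at 18.7, 244 and 234 against 1286, 617, 631 and 815 (-2.94 ± 0.66).

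Gapdh (-0.50 ± 0.16), the glucose transporter gene Slc2a1 (-0.37 ± 0.30) and Pfkp (0.77 ± 0.24) did not pass. The number lower was 6 without K2_328, and 1 glycolysis gene was higher without K3_335. The list took 0.275 to 0.331% of reads in Kansl2, 0.462 to 0.508% in Kansl3 and 0.423 to 0.435% in Cre libraries, with no overlap. The part of neural RNA (progenitor markers 0.0725 to 0.1145% against 0.3005 to 0.487%) was not tested. None of 17 hypoxia response genes passed by limma (5 had an unadjusted p under 0.05; edgeR called 0 and DESeq2 1, lower).

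Of 55 nuclear genes of the respiratory chain 5 were lower in Kansl2 and none was higher, with 52 differences below 0 and a median of -0.31. Of all genes tested 10.1% passed, so the number that passed here was near the overall share. Atp5a1, of the ATP synthase, stood at 1643, 1360 and 1616 against 2195, 2122, 2675 and 2281 (-0.59 ± 0.15, adjusted p = 0.0223, and 0.103 without K2_330). Sdha (-0.80 ± 0.20), Uqcrc2 (-0.69 ± 0.18), Ndufs8 (-0.74 ± 0.21) and Cox5a (-0.61 ± 0.18) were the others. The count was 0 without K2_338 or K3_339, 1 without K2_330 or K3_327 and 3 without K3_335, and 13 on the values as deposited. Progenitor markers moved with these genes too, and their part was not tested. None of 15 transcripts of the mitochondrial genome passed by limma (1 had an unadjusted p under 0.05), while edgeR and DESeq2 each called 1 higher.

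Of 22 genes of the integrated stress response 5 were lower in Kansl2 and 1 was higher. Phgdh, the first enzyme of serine synthesis, stood at 149.8, 137 and 231.5 against 903, 705, 535 and 629 (-2.01 ± 0.24, adjusted p = 0.000503). Psat1, the next enzyme of the route, stood at 237, 216 and 283.5 against 703, 513, 708 and 748 (-1.44 ± 0.20, adjusted p = 0.00125). Gars, a tRNA synthetase (-1.12 ± 0.23, adjusted p = 0.00972), Asns (-1.76 ± 0.49) and Atf5 (-1.01 ± 0.30) were lower too. The amino acid transporter gene Slc7a1 was higher (0.85 ± 0.21, adjusted p = 0.0232, and 0.0796 without K2_328). Atf4, the central factor of the response, did not pass (0.09 ± 0.16). The number lower was 3 without K2_330, K3_327, K3_335 or K3_339. Serine synthesis genes are known to be strong in neural progenitors, whose part was not tested.

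Of 27 p53 targets 3 were lower and none was higher. Of all genes tested 10.1% passed, so this count and that of the unfolded protein response below were near the overall share. Ccng1, cyclin G1, stood at 42.6, 237 and 85.8 in Kansl2, 490.1, 441, 477 and 384 in Kansl3 and 107 to 252 in Cre libraries (-2.21 ± 0.42, adjusted p = 0.00683), so that every Kansl3 library was above every control. Bax (-0.69 ± 0.18, adjusted p = 0.0287, and 0.0983 without K2_338) and Ddit4l (-0.92 ± 0.27, adjusted p = 0.0464, and 0.121 without K2_330) were the others, and Cdkn1a did not pass (0.08 ± 0.21). The number lower was 2 without K2_328 or K3_333 and 1 without any other library, and 1 p53 target was higher without K3_333. Of 18 genes of the unfolded protein response 2 were lower: the chaperone gene Canx, at 1139, 1326 and 1557 against 2632, 3387, 1964 and 2890 (-1.004 ± 0.19, adjusted p = 0.0059), and Sdf2l1 (-1.48 ± 0.38, adjusted p = 0.0268, and 0.0783 without K2_328). Of 15 NRF2 antioxidant genes, against 5.68% of all genes tested, 3 were lower. They were Txnrd1, thioredoxin reductase, at 106, 143 and 129 against 264, 342, 291 and 284 (-1.23 ± 0.24, adjusted p = 0.00785), the peroxiredoxin gene Prdx1 (-0.59 ± 0.17, adjusted p = 0.044, and 0.186 without K2_330) and the superoxide dismutase gene Sod1 (-0.67 ± 0.20, adjusted p = 0.0482, and 0.153 without K2_338). The 1 that was higher was Nfe2l2, which encodes NRF2 (0.80 ± 0.24, adjusted p = 0.0467, and 0.166 without K2_338). The number of lower NRF2 genes was 1 without K2_330, K2_338, K3_327, K3_335 or K3_339, and that of the unfolded protein response 1 without K2_328, K2_338, K3_327 or K3_333 and 4 without K3_335.

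Of 28 cell cycle genes 8 were lower in Kansl2 and none was higher (median -0.43). They were the cyclin genes Ccnd1, Ccnd2, Ccnb1 and Ccnb2, the helicase genes Mcm4 and Mcm6, and Rrm1 and Rrm2 of ribonucleotide reductase. Ccnd1 stood at 509, 478 and 423 against 681, 737, 953 and 881.5 (-0.78 ± 0.18, adjusted p = 0.0178, and 0.0753 without K2_338). Mki67 (0.07 ± 0.18) and Top2a (0.36 ± 0.16), markers of dividing cells, did not pass. Neural progenitors divide, and the part of their RNA was not tested. The count was 1 without K2_328, 2 without K3_327 or K3_333, 3 without K2_330, K2_338 or K3_339, and 5 without K3_335.

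Of 10 genes of the insulin-like growth factor system 2 were higher and 2 were lower in Kansl2. The share that passed over all genes tested was 10.1%, and the median of this list was -0.07. Igfbp5, an IGF binding protein, stood at 323.5, 215 and 224 against 731, 713, 469.6 and 783 (-1.40 ± 0.23, adjusted p = 0.00314), and Irs1, an adaptor of the insulin and IGF receptors, at 115 ± 15.7 (SD, n = 3) against 329 ± 64.6 (SD, n = 4) (-1.49 ± 0.25, adjusted p = 0.00366). Neither overlapped. Igfbp7, a binding protein of the vessel wall (0.83 ± 0.20, adjusted p = 0.0222, and 0.0796 without K2_328), and Insr, the insulin receptor (1.27 ± 0.37, adjusted p = 0.0425, and 0.138 without K2_338), were higher. Without K2_328, K2_330 or K2_338 no gene of this list was higher, and 1 was without K3_327, K3_335 or K3_339.

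Of 24 genes of the Toll-like receptor and NF-kB response 3 were higher and 1 was lower in Kansl2. The share that passed over all genes tested was 10.1%. Nfkb1 stood at 330.3, 547.5 and 469.5 against 90.3, 234, 195.5 and 272 (1.26 ± 0.34, adjusted p = 0.0328, and 0.127 without K2_330). Relb, the partner of NFKB2, stood at 123, 146 and 149.6 against 7.76, 55.5, 66.4 and 38.2, with controls at 16.1 to 25.8 (2.05 ± 0.61, adjusted p = 0.0478, and 0.135 without K2_338). Nfkb2 differed by 1.40 ± 0.36, adjusted p = 0.0266, and 0.116 without K2_330. No gene of the list was higher without K2_330 or K2_338, and 1 was without K3_339. Vcam1, an adhesion molecule, was lower, at 102, 57.1 and 52.0 against 399, 359, 224 and 358 (-2.27 ± 0.32, adjusted p = 0.00105), and passed with any library left out.

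The summed reads of this list were 0.127 to 0.1825% in Kansl2, 0.0979 to 0.138% in Kansl3 and 0.0695 to 0.0799% in Cre libraries, so that every knockout library was above every control. None of 23 interferon response genes passed between the knockouts by limma (1 had an unadjusted p under 0.05), by edgeR or by DESeq2, and none did by limma with any single library left out. They took 0.129 to 0.138% of reads in Kansl2, 0.0975 to 0.202% in Kansl3 and 0.05565 to 0.0826% in Cre libraries. Ifit1, an antiviral RNA-binding protein, stood at 18.7, 94.1 and 58.5 in Kansl2, 51.4, 141.7, 114 and 129 in Kansl3 and 0 to 0.896 in Cre libraries (-1.10 ± 0.54, adjusted p = 0.202 between the knockouts). The knockouts were not tested against the controls here.

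By size, the 12 largest differences toward Kansl3 ran from -5.22 to -3.27 (genes with a mean of at least 50 and groups apart). Spp1, osteopontin, stood at 0, 2.11 and 1.30 in Kansl2 and at 92.2, 23.5, 198 and 57.3 in Kansl3 libraries (-5.22 ± 0.86, adjusted p = 0.00315), with controls at 0 to 14.3. Wscd1 stood at 3.405, 0 and 2.60 against 109.7, 86.2, 38.1 and 150.5 (-5.11 ± 0.78, adjusted p = 0.00197). Bmpr1b, a receptor for bone morphogenetic proteins, stood at 11.9, 5.285 and 0 against 125, 92.75, 56.55 and 76.4 (-4.30 ± 0.82, adjusted p = 0.00672). With Kansl2 libraries at or near 0, such fitted differences depend on the pseudocount. Acsbg1, an acyl-CoA synthetase of brain, stood at 11.45 ± 7.00 (SD, n = 3) against 123 ± 67.2 (SD, n = 4) (-3.33 ± 0.62, adjusted p = 0.00602). Kcne1l, Nkain4, St6galnac5, Aldh6a1, Elovl4, Luzp2, Nell2 and Jakmip2 made up the rest; Aldh6a1 (adjusted p up to 0.0773 without K3_339), Elovl4 (0.059 without K3_327) and Jakmip2 (0.0684 without K2_330) did not pass with every library left out. Neural progenitor markers moved the same way (0.0725 to 0.1145% of reads against 0.3005 to 0.487%), and their part in these differences was not tested.

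Toward Kansl2, the 12 largest ran from 3.29 to 2.72. Cd4, better known as a T-cell co-receptor, stood at 143, 113 and 118 in Kansl2 and at 15.5, 13.7, 7.38 and 12.35 in Kansl3 libraries, with controls between, at 43.9 to 72.7 (3.285 ± 0.52, adjusted p = 0.00233). Sema4a, a semaphorin, stood at 218, 192 and 101 against 15.5, 21.55, 18.4 and 21.3 (3.02 ± 0.46, adjusted p = 0.00195). Lyve1, a hyaluronan receptor, stood at 106, 140.6 and 164 against 17.5, 22.9, 9.83 and 26.95 (2.825 ± 0.50, adjusted p = 0.00459). Agbl3, a carboxypeptidase, stood at 549.9, 477 and 508.5 against 64.1, 108, 112 and 43.8 (2.72 ± 0.33, adjusted p = 0.000503). Cd4 and Lyve1 are also known from macrophages, whose markers took 0.00688 to 0.00946% against 0.00593 to 0.0112% of reads. Lsmem1, Fam196a and Wdr95 passed with any library left out, while Grhl2 (0.0834 without K2_338), Kcnab1 (0.072 without K2_338), Hapln3 (0.056 without K2_330), Tbx15 (0.0913 without K2_330) and Mtfr2 (0.0765 without K2_338) did not.

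The authors' deposited tables set each knockout against the same Cre controls, so their columns share those samples and are given side by side. For Hes5 the authors' deposited tables list log2 fold changes of -2.15 (adjusted p = 8.1e-16) for Kansl2 and 0.57 (adjusted p = 0.0179) for Kansl3. For Fabp7 the authors' deposited tables list -1.34 (adjusted p = 0.000181) for Kansl2 and 0.70 (adjusted p = 0.000947) for Kansl3. Both genes moved in opposite directions against the controls there. For Pdgfrb the authors' deposited tables list 0.33 (adjusted p = 0.0807) for Kansl2 and -0.84 (adjusted p = 5.42e-08) for Kansl3, and for Col4a1 0.46 (adjusted p = 0.0227) for Kansl2 and -0.95 (adjusted p = 1.06e-08) for Kansl3. For Hmgcs1 the authors' deposited tables list -1.33 (adjusted p = 9.85e-15) for Kansl2 and 0.26 (adjusted p = 0.398) for Kansl3, and for Fosb 1.12 (adjusted p = 2.1e-09) for Kansl2 and -0.43 (adjusted p = 0.0529) for Kansl3. At the same threshold Hmgcs1 and Fosb passed there for Kansl2 alone and Pdgfrb for Kansl3 alone.

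The same contrast was then set beside sorted endothelial cells, in libraries of 10337381 to 14857188 reads. There 4 of 13249 genes passed (0.0302%): Ndrg2, Syt5, Ano1 and the predicted gene Gm8730, at 47.4, 133.5 and 53.3 in Kansl2 and 677.0, 525.3 and 603.4 in Kansl3. The endothelial contrast was taken from a joint fit of both cell types, on genes detected in both. The 1452 calls came from a fit of the pericyte libraries alone, so the 2 counts are not like for like. A test of the difference between the 2 contrasts (pericytes minus endothelial cells) passed for 23 of 13249 genes (0.174%), with 1569 at an unadjusted p under 0.05. The Y-linked Ddx3y stood at 1138 to 1729 in every endothelial library used, but at 0 in pericyte libraries K2_328, K2_338 and K3_333. Sex was not in this fit, and its part was not tested. Hmgcs1 differed by -1.66 in pericytes and by 0.22 in endothelial cells, which stood at 1652, 1289 and 1629 in Kansl2 and at 1566, 1238 and 1124 in Kansl3 (difference of differences -1.88 ± 0.33, adjusted p = 0.0357). Ckb, brain creatine kinase, stood at 657, 729 and 716.5 against 3762, 2831, 2585 and 2779 in pericytes and at 2383, 1409 and 2394 against 2797, 2045 and 1837 in endothelial cells (-1.95 ± 0.32, adjusted p = 0.0202). Nr4a1 differed by 1.01 and -0.83 (1.84 ± 0.34, adjusted p = 0.0357). For these 3 the groups were apart in pericytes, and in endothelial cells Hmgcs1 and Ckb overlapped.

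Podxl, a sialomucin of endothelium, stood at 8.51, 8.455 and 6.50 in Kansl2 and at 80.55, 67.3, 40.6 and 38.2 in Kansl3 pericytes, while in endothelial cells it lay at 3008 to 4300 over both groups (-2.84 ± 0.45, adjusted p = 0.0202). Ggcx, the vitamin K-dependent carboxylase, stood at 499, 561 and 559 against 164, 199, 125 and 161 in pericytes and at 779, 786 and 909.7 against 1035, 1701 and 1503 in endothelial cells (2.49 ± 0.34, adjusted p = 0.00596). Mcam (1.26 ± 0.25, adjusted p = 0.0507) and Col4a2 (1.23 ± 0.31, adjusted p = 0.135) did not pass, so the cell types were not shown to differ in them. The 23 became 3 without pericyte library K2_338 and 64 without endothelial library K2_188.

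**Figure D4:**
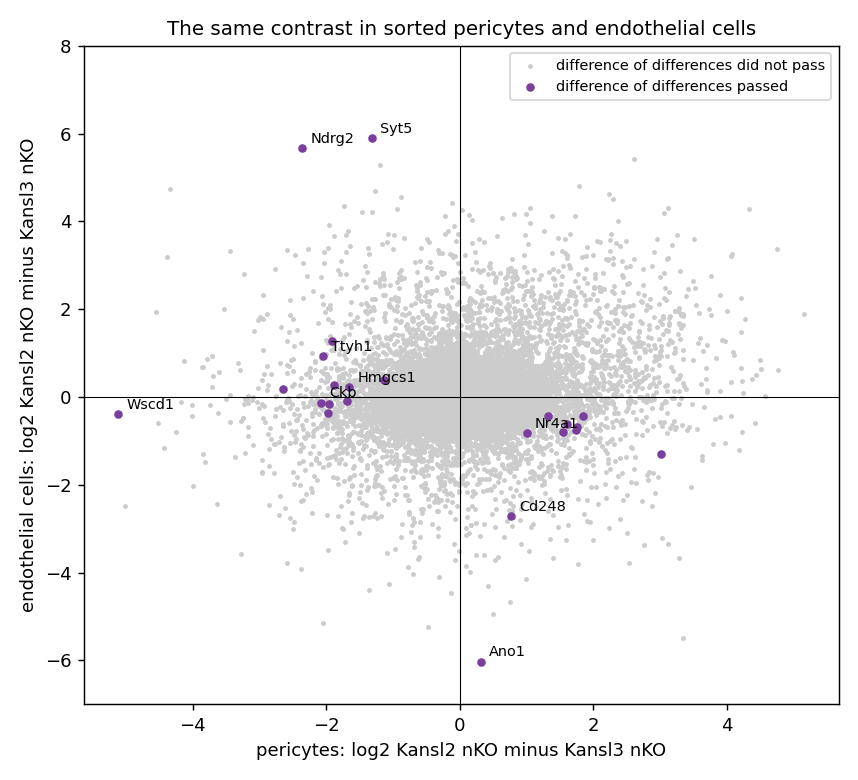
Log2 difference between Kansl2 nKO and Kansl3 nKO in pericytes (horizontal axis) and in endothelial cells (vertical axis), 1 point per gene tested in both; purple points are the 23 genes whose difference of differences passed. Hmgcs1, Ckb and Wscd1 lie far left of 0 and near 0 on the vertical axis, while Ndrg2, Syt5 and Ano1 lie farthest from 0 on it.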

How the data were processed

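Per the submitters' processing notes, STAR, featureCounts and DESeq2 were used with mm10, with no versions named. The deposited values are a signal: gene counts that the authors divided by a size factor per library within each table, and the authors' comparison tables hold log2 fold changes and adjusted p-values. Whole reads were recovered from the steps of the columns (100.0% of 1725732 values within 0.01 of a whole number) and scaled together by TMM (edgeR 4.0.16) over 11 libraries. The kit does not mark strand, so overlapping and antisense genes cannot be told apart.

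Genes with a mean of at least 10 over the 7 libraries entered limma 3.58.1 with a mean-variance trend, on log2(value + 1), a scale that understates the change of low genes. Endothelial libraries were scaled on their own and tested with an interaction term. Alternatives were RLE factors, the deposited values, edgeR, DESeq2 1.42.0, other filters and pseudocounts, quality weights, sex and leaving out libraries. The fit was tested on simulated data, in R 4.3.3 and Python 3.11.15.

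The comparison, its 34 gene lists and its tests were chosen with earlier results of these data known. Named were Kat8, Kansl2 and Kansl3, the 12 largest differences each way among genes that passed with a mean of at least 50 and groups apart (no sex-linked, predicted or unnamed genes), and up to 4 genes per list with the smallest p. Other genes were chosen after their values were seen, and a few genes of the lists are not reported here. Libraries of a group differed from each other (chi-square per gene 8.30 to 20.9), so none was a duplicate.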

Additional observations from a re-analysis of the deposited data

Results flagged for a closer look

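The contrast of Kansl2 and Kansl3 nKO differed between pericytes and endothelial cells for 23 genes, by the test of the difference itself, given here as the log2 difference of differences. Of the 23, Ndrg2 (-8.04), Syt5 (-7.21) and Ano1 (6.35) also passed for the endothelial contrast of the joint fit. They differed by 5.68, 5.895 and -6.03 there, against -2.36, -1.32 and 0.32 in pericytes. Ndrg2 stood at 55.9, 57.0 and 39.5 in Kansl2 endothelial cells and at 0 in all 3 Kansl3 libraries, and Syt5 at 26.5, 97.1 and 77.05 against 0. Ano1 stood at 0, 0 and 0.988 against 62.3, 79.75 and 108. Fitted values against libraries at 0 depend on the pseudocount. Values above 0 were also found for C530043K16Rik (4.31), Cd248 (3.48), Ggcx (2.49), Hspa1b (2.45), St3gal6 (2.34), Lgals4 (2.28), Smpd4 (2.23), Nr4a1 (1.84) and Mef2d (1.765). Values below 0 were found for Wscd1 (-4.73), Fxyd6 (-3.19), Ttyh1 (-2.99), Podxl (-2.84), Dpysl3 (-2.17), Ckb (-1.95), Hmgcs1 (-1.88), Ddah1 (-1.79), Cpe (-1.62), Lxn (-1.60) and Pebp1 (-1.52).

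A single library stood far from the other 3 of its group in 17 of 280 checks of named genes, and chance gives about 1 in 20. In K3_333 the mitochondrial transcripts mt-Rnr1 (1428 normalized counts), mt-Rnr2 (19560) and mt-Co1 (24940) were low, and Notch1 (944.5) and Adamts1 (618.5) were high. In K3_335 Adamts9 (63.92), Acaa2 (710.5) and Bax (682.3) were high. In Cre_141, the only control with Xist above Ddx3y, Xist (3036), Tsix (1303) and C1qc (6.921) were high. In Cre_142 Kansl2 (103.1) was low and Kat8 (143.1) high, in Cre_134 Cxcl12 (211.4) was high and Pkm (2902) low, and in Cre_139 Mirg (269.6) was low and Ifit1 (0.8956) high, the other 3 controls having no Ifit1 read.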

How the results depend on the processing

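Of 2645 alternative values for 140 results on named genes, 2420 kept their side of the threshold, 190 no longer passed and 35 newly passed. Among values that passed in the main or the alternative fit, 0 reversed direction. A change of direction that passed in neither fit was counted as kept. Kat8, for example, ran from -0.83 to 0.48 with single libraries left out. The 1452 calls became 1443 under RLE factors, 1499 with TMM over the 7 libraries alone, 1920 on the deposited values, 1690 and 1369 with pseudocounts of 5 and 0.5, 1412 with a mean of at least 50, 1123 with no filter, 1311 by edgeR, 1109 with sex in the fit, 1950 with all pericyte groups in the fit and 2010 with quality weights. DESeq2 called 2320 of 17434 genes (1224 higher, 1096 lower), and the cause was not tested. The deposited scaling moved the median of all genes from -0.05 to -0.22. Leaving out single libraries gave 660 to 1311 calls, and fewer samples enter each of those fits. The 23 genes of the endothelial comparison became 33 under RLE factors, 21 by edgeR, 40 with a pseudocount of 5, 35 with a mean of at least 50, and 3 to 64 with single libraries left out; the cause was not tested. No paired analysis was possible because the Kansl2 and Kansl3 libraries share no replicate numbers. Depths of 2357456 to 5852542 reads limit what can be seen in low genes.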

Other observations

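Genes lying downstream of immediate early genes and of Atf3 within 40 kb were looked at after their values were seen. Of 24 such neighbours tested 8 were higher in Kansl2 and 2 were lower, with a median difference of 0.69. Over all genes tested 4.46% were higher and 5.68% lower, with a median of -0.05. Rtn2, 6532 bases after Fosb on the other strand, stood at 1107, 1057 and 1087 normalized counts in Kansl2 and at 405, 271, 306 and 376 in Kansl3 libraries (1.69 ± 0.19, adjusted p = 0.000334 by limma). Ppm1n, 22601 bases after Fosb, stood at 507, 749 and 547.5 against 96.1, 133, 140.1 and 112 (2.305 ± 0.25, adjusted p = 0.000269), and Vasp, farther on, at 439, 488 and 462 against 201, 322, 401 and 357 (0.575 ± 0.24, adjusted p = 0.139). Fam71a, 5479 bases after Atf3, stood at 718, 579 and 433 against 115.5, 112, 88.5 and 98.8 (2.44 ± 0.25, adjusted p = 0.000234), while Atf3 itself did not pass (0.48 ± 0.27, adjusted p = 0.265). Pde4c, after Jund, stood at 141.3, 179.7 and 116 against 29.1, 28.7, 18.4 and 43.8 (2.28 ± 0.43, adjusted p = 0.00683), while Jund did not pass (0.20 ± 0.23, adjusted p = 0.598). Prdx2, after Junb (-0.76 ± 0.18, adjusted p = 0.0202), and Tubb5, after Ier3 (-0.68 ± 0.14, adjusted p = 0.00984), were the 2 that were lower.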
